A study of Mus musculus with 56 samples.

Results

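The RNA levels of 10 genes of glycine, serine and methyl group metabolism were examined in mouse liver. The genes were Gldc, Gcsh, Amt, Shmt1, Shmt2, Gnmt, Mat1a, Bhmt, Phgdh and Sds, 10 of the 23813 genes in the deposited RNA-seq table. They were chosen by name, with their RNA differences between these groups already known, so that their values are given as a description and without a test. The groups were 4 hypothyroid WT mice (PTU), 4 hyperthyroid WT mice (PTU and T3) and 4 hypothyroid L-NCORdeltaID mice (PTU). All were males fed PTU (propylthiouracil), an inhibitor of thyroid hormone synthesis, in a diet low in iodine, and hyperthyroid mice received triiodothyronine (T3), the active hormone, by injection on the last days while the others received vehicle. L-NCORdeltaID mice carry in the liver an NCOR1 corepressor without the domains that bind the thyroid hormone receptor, on a mixed C57BL/6;129S background, and ages of these mice are not in the labels. By the study's account, its L-NCORdeltaID mice were younger on average than its WT mice. The L-NCORdeltaID group received no T3. Levels are RPKM, which are read counts scaled to transcript length and library depth, and each group has n = 4 livers. The second file used here lists regions with acetylated H3 (H3K9Ac or H3K27Ac) and holds no value per sample.

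Liver breaks down glycine in mitochondria with the glycine cleavage system, in which GLDC removes carbon dioxide, GCSH carries the aminomethyl group on a lipoyl arm and AMT passes it to tetrahydrofolate. Serine hydroxymethyltransferases interconvert serine and glycine in the cytosol (SHMT1) and mitochondria (SHMT2), and thereby load folate with 1-carbon units. In the methionine cycle MAT1A makes S-adenosylmethionine, GNMT spends its methyl group on glycine to make sarcosine, and BHMT uses betaine to turn homocysteine back into methionine. PHGDH starts serine synthesis from a glycolytic intermediate, and SDS deaminates serine to pyruvate for gluconeogenesis. Thyroid hormone acts through nuclear receptors that bind DNA as a heterodimer with RXR, typically at 2 AGGTCA-like half-sites in the same direction with 4 bases between them, an element called DR4. Without hormone the receptor recruits NCOR1 and HDAC3.

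Depth was estimated from the steps between the lowest RPKM values. It was 29100000 to 38000000 reads in hypothyroid WT, 21200000 to 26100000 reads in hyperthyroid WT and 38200000 to 42500000 reads in L-NCORdeltaID libraries, and a level of 0.1 RPKM then stands for 2.12 to 4.25 reads on each kilobase. Each of the 12 samples has runs from 2 instrument models per the labels. Thrsp and Dio1, known T3 targets, were higher in all 4 hyperthyroid livers than in any hypothyroid WT liver, but Dio1 was at 57.7 RPKM in hypothyroid WT replicate 3 and at 0.719 to 8.98 RPKM in the other 3. Ncor1 was at 14.1 to 15.6 RPKM in hypothyroid WT and 12.1 to 13.9 RPKM in L-NCORdeltaID, and a level per transcript does not show the missing exons. The summed level of 6 hepatocyte markers was 37020 to 48540 RPKM in hypothyroid WT, 19370 to 27730 RPKM in hyperthyroid WT and 30670 to 34990 RPKM in L-NCORdeltaID. That sum is mostly Alb and Ttr, which were called lower with T3, whereas Hnf4a was called higher, from 182.1 ± 18.1 to 242.7 ± 11.9 RPKM, and Apoa1, Serpina1a and Tat were not called. When libraries were scaled to equal medians of gene ratios, 0 of these 6 markers were called higher and 1 lower. Markers of Kupffer cells, the liver macrophages, were called higher with T3 for 6 of 6 genes, with a summed level of 131.9 to 218.5 RPKM against 42.2 to 59.9 RPKM, and reached 47.3 to 128.6 RPKM in L-NCORdeltaID. The summed level of 5 pancreatic acinar markers was 934.9 RPKM in hyperthyroid replicate 3 and 73.5 to 88.7 RPKM in the other hyperthyroid libraries. It was 9.56 to 15.1 RPKM in hypothyroid WT and 5.07 to 9.53 RPKM in L-NCORdeltaID, and no acinar marker was at 0 throughout either WT group. Outside hyperthyroid replicate 3 most of that sum is Cela1, at 8.465 to 13.57 RPKM in hypothyroid WT. Hyperthyroid medians were 77.66 RPKM for Cela1 and 0.8345 to 7.681 RPKM for the other acinar markers. With T3, 1 of the 5 was called higher and 0 lower. Of 8 markers of pericentral hepatocytes, those around the central vein, 4 were called higher and 4 lower with T3, and their sum was 1285 to 1623 RPKM against 6113 to 7770 RPKM in hypothyroid WT and 4537 to 5778 RPKM in L-NCORdeltaID. Most of this sum is Cyp2e1, with means of 5110 RPKM in hypothyroid WT, 947.9 RPKM with T3 and 3539 RPKM in L-NCORdeltaID. The means of Glul, Axin2, Lgr5 and Rhbg were higher with T3 than in hypothyroid WT. Of 6 periportal markers 1 was called higher and 3 lower with T3, with sums of 728.6 to 991.5, 739.3 to 1146 and 721.5 to 1310 RPKM in hypothyroid WT, hyperthyroid WT and L-NCORdeltaID. Beside these marker calls, 24.5% of the 13941 genes tested were called higher with T3 and 7.71% lower. In bulk liver RNA, fewer cells of a type and less RNA per cell cannot be told apart. The part of these shifts in the differences between groups was not tested.

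The sequences upstream of Gldc, Shmt1 and Gnmt are shown because these 3 genes had the largest log2 fold changes with T3 among the 9 that passed the filter on low values, and because each start site lies inside an acetylated region. Each line gives the bases before the GENCODE start site used, 250 for Gldc and Gnmt and 201 for Shmt1, 5′ to 3′ on the strand of the gene. In mm9 these are Gldc at chr19:30249909-30250158, Shmt1 at chr11:60624768-60624968 and Gnmt at chr17:46866118-46866367, all on the minus strand. Another annotated Shmt1 transcript starts farther upstream, at position 60625220, so that the Shmt1 bases lie in its first intron and those of its first exon are left out. Capitals mark an AGGTCA half-site or a CCAAT box on either strand, so that TGACCT and ATTGG are their reverse forms.
Gldc: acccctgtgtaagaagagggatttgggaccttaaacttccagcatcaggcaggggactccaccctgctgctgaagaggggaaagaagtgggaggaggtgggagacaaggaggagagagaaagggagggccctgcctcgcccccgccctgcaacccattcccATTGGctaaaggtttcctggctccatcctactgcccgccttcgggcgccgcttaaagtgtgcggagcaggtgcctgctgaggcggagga
Shmt1: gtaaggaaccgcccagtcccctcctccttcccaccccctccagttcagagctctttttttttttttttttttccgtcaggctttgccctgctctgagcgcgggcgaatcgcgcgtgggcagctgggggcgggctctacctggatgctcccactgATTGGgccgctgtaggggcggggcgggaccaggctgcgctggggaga
Gnmt: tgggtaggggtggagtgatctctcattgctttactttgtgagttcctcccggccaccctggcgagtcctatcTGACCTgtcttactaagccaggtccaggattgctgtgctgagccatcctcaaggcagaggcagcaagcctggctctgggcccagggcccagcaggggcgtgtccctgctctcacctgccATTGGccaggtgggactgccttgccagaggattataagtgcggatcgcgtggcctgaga
Each of the 3 sequences holds 1 CCAAT box in reverse orientation, and that of Gnmt also holds 1 reverse half-site. A CCAAT box is present in the 250 bases before the start site of 8 of the 10 genes and in 35.5% of those of 12314 tested genes with a known position, and a half-site in 3 of 10 against 11.4%. The CCAAT box was searched after these 3 sequences had been seen. A DR4 with at least 10 of its 12 half-site bases occurs in 0 of the 10 windows and in 1.95% of all windows.

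The first question was how the levels of these genes respond to T3 in WT liver. Gldc, Shmt1 and Amt were higher in every hyperthyroid than in every hypothyroid WT liver, and Gnmt was lower in every one. Of the 10 genes, 9 passed the filter on low values and Phgdh did not. A call required an adjusted p under 0.01 in a limma fit over all genes, and on that rule 3 of the 9 were called higher (background 24.5% of 13941 genes) and 1 lower (7.71%). With a log2 fold change over 1 in size as well, Gldc and Shmt1 were higher (8.28%) and Gnmt was lower (3.47%). The groups did not overlap for 4 of the 9 genes (46.6%). The median log2 fold change was 0.002 over the 9 genes and 0.233 over all genes tested. When libraries were instead scaled to equal medians of gene ratios, the median of all genes was 0.008, the split of all calls moved from 3413 higher and 1075 lower to 1701 and 1953 of the 13932 genes that then passed the filter, and that of the 10 genes to 2 and 2, with Amt no longer called higher and Gcsh called lower.

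The second question was how the same genes differ in liver whose NCOR1 lacks the domains that bind the receptor. By the study's account, HDAC3 was also reduced in this mutant at sites without the receptor, and it proposes that the missing domains may serve other regulators too. The part of the receptor in the differences below was not tested. In hypothyroid L-NCORdeltaID liver, Gldc and Shmt1 were again above every hypothyroid WT liver, without T3 having been given. Both comparisons use the same 4 hypothyroid WT libraries, so these values are set side by side only. Of the 9 genes, 2 were called higher (0.725% of 13790 genes) and 0 lower (0.544%) in limma. At an unadjusted p under 0.05, 4 of the 9 were higher and 0 lower, against 1759 and 1072 of the 13790 genes. The groups did not overlap for 3 of the 9 genes (13.1%), which were Gldc, Shmt1 and, with values just below those of hypothyroid WT, Gcsh. The median log2 fold change was 0.235 over the 9 genes and 0.033 over all genes tested.

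**Figure D1:**
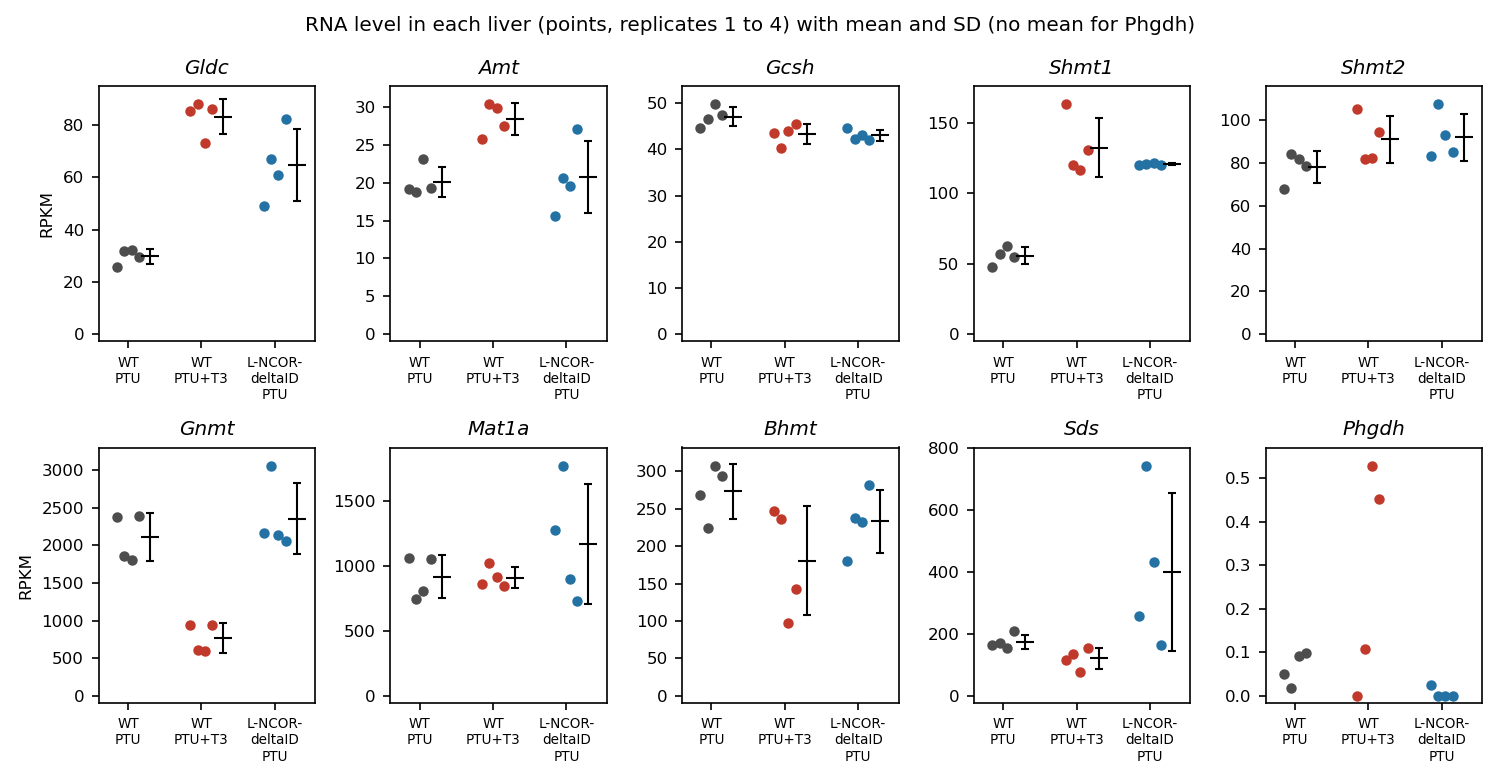
RNA level (RPKM, y axis from 0) of each of the 10 genes in hypothyroid WT (grey), hyperthyroid WT (red) and hypothyroid L-NCORdeltaID liver (blue), with points for the 4 replicates in order and bars for mean and SD, except for Phgdh, which has points only. Gldc and Shmt1 sit above the hypothyroid WT points in both other groups, and Gnmt is lowest in the hyperthyroid group, at 595.7 to 943 RPKM.

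Gldc encodes the decarboxylase that opens the glycine cleavage reaction. Its levels were 25.9, 31.9, 32.1 and 29.4 RPKM in hypothyroid WT replicates 1 to 4, 85.5, 87.9, 73.2 and 86.3 RPKM in hyperthyroid WT, and 49.1, 67.0, 61.0 and 82.3 RPKM in L-NCORdeltaID. Both groups lay above all hypothyroid WT livers, while the highest L-NCORdeltaID liver, replicate 4, reached into the hyperthyroid range. The mean was 2.79-fold that of hypothyroid WT with T3 and 2.17-fold in L-NCORdeltaID, with log2 fold changes of 1.48 ± 0.09 (SE) and 1.10 ± 0.15. The L-NCORdeltaID call for Gldc was lost in 6 of 8 fits that left out 1 library, namely without each of the hypothyroid WT libraries and without L-NCORdeltaID replicate 2 or 3, where the log2 fold change stayed between 1.03 and 1.14.

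Amt and Gcsh encode the other 2 proteins particular to the cleavage system. Amt was at 19.2, 18.8, 23.1 and 19.3 RPKM in hypothyroid WT, 25.8, 30.3, 29.9 and 27.5 RPKM in hyperthyroid WT, and 15.6, 20.7, 19.6 and 27.1 RPKM in L-NCORdeltaID. The hyperthyroid values lay above all hypothyroid WT values, whereas the L-NCORdeltaID values spread on both sides of them. The log2 fold change of Amt was 0.50 ± 0.09 with T3, which is 0.26 after scaling to equal medians, and 0.02 ± 0.15 in L-NCORdeltaID. Gcsh stayed in a narrow range, at 44.7 to 49.8 RPKM in hypothyroid WT, 40.3 to 45.6 RPKM in hyperthyroid WT and 42.1 to 44.7 RPKM in L-NCORdeltaID. Its log2 fold changes were -0.12 ± 0.06 and -0.13 ± 0.06, and neither was called.

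Shmt1 encodes the cytosolic serine hydroxymethyltransferase. It was at 48.0, 56.9, 62.9 and 54.8 RPKM in hypothyroid WT, 163, 119.8, 116.4 and 130.5 RPKM in hyperthyroid WT, and 120.3, 120.5, 121.6 and 119.8 RPKM in L-NCORdeltaID. The L-NCORdeltaID livers, with an SD of 0.757 RPKM, all fell within the hyperthyroid range and none approached the hypothyroid WT range. The log2 fold change was 1.24 ± 0.12 with T3 and 1.12 ± 0.08 in L-NCORdeltaID. The mitochondrial enzyme gene, Shmt2, did not share this pattern. It was at 67.6 to 84.3 RPKM in hypothyroid WT, 81.9 to 105.1 RPKM in hyperthyroid WT and 83.2 to 107.3 RPKM in L-NCORdeltaID, with overlapping ranges and log2 fold changes of 0.22 ± 0.10 and 0.24 ± 0.10 that were not called. After scaling to equal medians the T3 value of Shmt2 was -0.02.

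Gnmt, the glycine N-methyltransferase gene, had the highest level of the 10 in both hypothyroid groups. It was at 2376, 1862, 1808 and 2384 RPKM in hypothyroid WT, 943, 604.3, 595.7 and 933.9 RPKM in hyperthyroid WT, and 2163, 3053, 2133 and 2061 RPKM in L-NCORdeltaID. Every hyperthyroid liver was below every liver of the other 2 groups, and the L-NCORdeltaID livers overlapped the hypothyroid WT livers. The mean with T3 was 0.365 times that of hypothyroid WT, a log2 fold change of -1.48 ± 0.20, against 0.15 ± 0.18 in L-NCORdeltaID. The 2 hyperthyroid livers with the lowest Gnmt were replicates 2 and 3.

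Mat1a, which encodes the liver S-adenosylmethionine synthetase, was not called in either comparison. Its range was 746.7 to 1064 RPKM in hypothyroid WT, 841.9 to 1023 RPKM in hyperthyroid WT and 727.3 to 1770 RPKM in L-NCORdeltaID, with log2 fold changes of 0.00 ± 0.14, or -0.24 after scaling to equal medians, and 0.28 ± 0.27. Bhmt was at 268.4, 224, 307.4 and 294.4 RPKM in hypothyroid WT, 247.5, 236, 96.7 and 142.8 RPKM in hyperthyroid WT, and 180.2, 237.4, 232.6 and 282.2 RPKM in L-NCORdeltaID. Hyperthyroid replicates 3 and 4 were below all other livers, whereas replicates 1 and 2 lay within the hypothyroid WT range. The log2 fold change of Bhmt was -0.69 ± 0.28 with T3 and -0.24 ± 0.15 in L-NCORdeltaID, and neither was called.

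Sds, the serine dehydratase gene, went in opposite directions in the 2 comparisons without being called in either. It was at 164.1, 169.7, 152.6 and 208.1 RPKM in hypothyroid WT, 116.4, 134.8, 76.0 and 154.5 RPKM in hyperthyroid WT, and 258, 741.4, 432.8 and 162.6 RPKM in L-NCORdeltaID. Hyperthyroid replicate 4 and L-NCORdeltaID replicate 4 each reached the hypothyroid WT range, and the other 3 livers of each group did not. The log2 fold changes were -0.57 ± 0.20 and 0.98 ± 0.40. L-NCORdeltaID replicate 2 had the highest level of Sds, Gnmt, Mat1a and Shmt2 in its group, and also the highest Kupffer marker sum.

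Phgdh was close to the detection limit of these libraries. It is listed at 0.051, 0.017, 0.092 and 0.098 RPKM in hypothyroid WT, 0, 0.107, 0.529 and 0.452 RPKM in hyperthyroid WT, and 0.026, 0, 0 and 0 RPKM in L-NCORdeltaID. With a transcript of 1893 bp, this corresponds to about 3, 1, 5 and 7 reads, 0, 5, 21 and 22 reads, and 2, 0, 0 and 0 reads, or 16, 48 and 2 reads per group. Most of the Phgdh reads came from hyperthyroid replicates 3 and 4. No fold change is given for it.

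**Figure D2:**
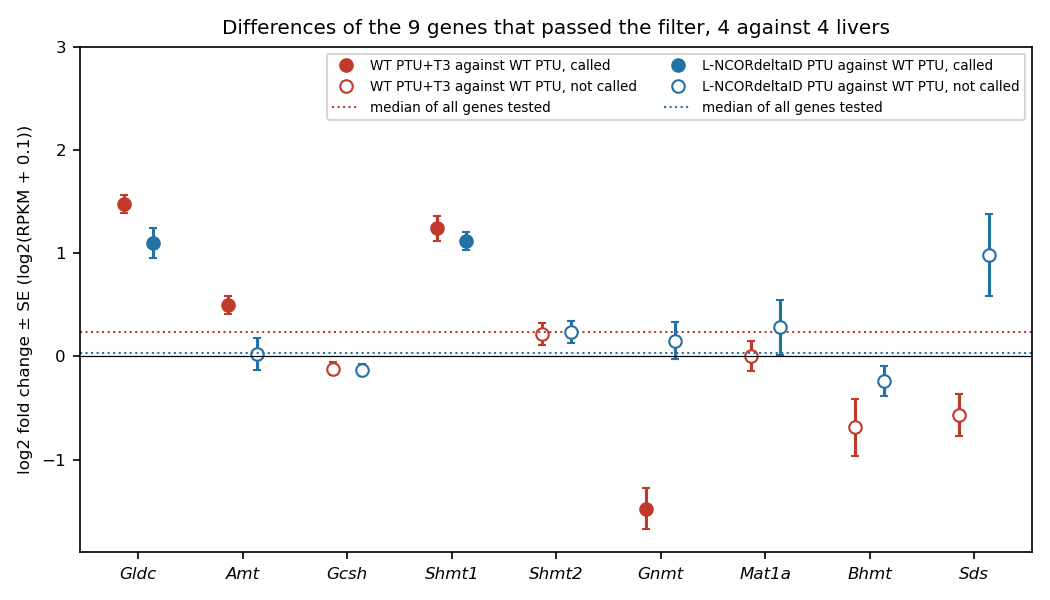
Log2 fold change ± SE (y axis) of the 9 genes that passed the filter, for hyperthyroid WT (red) and L-NCORdeltaID (blue) against the same 4 hypothyroid WT livers, with filled points for called genes and dotted lines at the medians of all genes tested. Gldc and Shmt1 lie above 1 in both comparisons, and Gnmt lies at -1.48 with T3 and 0.15 in L-NCORdeltaID.

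The order of the group means was hyperthyroid WT, L-NCORdeltaID, hypothyroid WT for Gldc, Shmt1 and Amt. For Gldc and Shmt1 the first and second of these overlapped and the third stood apart, while for Amt each neighbouring pair overlapped. For Gnmt the order was L-NCORdeltaID, hypothyroid WT, hyperthyroid WT, and only the last stood apart. All neighbours in the order overlapped for Sds, Mat1a, Bhmt, Shmt2, Gcsh and Phgdh. Across the 12 libraries Gldc and Shmt1 had a Pearson r of 0.94 on the log2 scale, as a description of points that share 3 groups.

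The genes around these 10 were described with lists of the linked pathways, which hold 62 other genes, of which 61 passed the filter in each comparison. With T3, 10 of the 61 were called higher and 17 lower, beside 24.5% and 7.71% of all genes. After scaling to equal medians these were 6 and 25, beside 1701 and 1953 of 13932 genes. In L-NCORdeltaID, 1 was called higher and 0 lower in limma, beside 0.725% and 0.544%. At an adjusted p under 0.05, 3 were higher and 3 lower, beside 344 and 257 of all 13790 genes. At an unadjusted p under 0.05, 11 were higher and 11 lower, beside 1759 and 1072 of all 13790 genes. The median log2 fold change over the 61 genes was -0.005 with T3 and -0.019 in L-NCORdeltaID. These lists were also chosen with earlier results known.

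Genes for the oxidation of choline to glycine were lower with T3. This route runs from choline through betaine, which BHMT uses, to dimethylglycine and to sarcosine, which is also the product of GNMT. Of the 7 genes listed, Bhmt included, 5 were called lower and 0 higher, beside 7.71% and 24.5% of all genes. At an unadjusted p under 0.05, 7 were lower and 0 higher, beside 1897 and 5980 of all 13941 genes. The median log2 fold change was -0.88 against 0.233 over all genes. Chdh, the mitochondrial choline dehydrogenase gene, was at 51.0, 43.3, 43.1 and 47.2 RPKM in hypothyroid WT and 12.3, 14.9, 19.6 and 17.2 RPKM in hyperthyroid WT, a log2 fold change of -1.54 ± 0.14 (limma adjusted p = 4.4e-05). Its groups were far apart, and Chdh was at 40.2 to 41.1 RPKM in L-NCORdeltaID. Aldh7a1, whose product oxidizes betaine aldehyde among other substrates, fell from 188.9 ± 17.9 to 93.7 ± 7.86 RPKM (SD, n = 4; limma adjusted p = 5.4e-05). Pipox, which encodes a peroxisomal sarcosine oxidase, fell from 177.7 ± 9.04 to 88.7 ± 12.8 RPKM (limma adjusted p = 9.9e-05). The mitochondrial dehydrogenase genes Dmgdh and Sardh had log2 fold changes of -0.88 ± 0.15 and -0.69 ± 0.10 (limma adjusted p = 0.0015 and 0.00069). These 5 calls held in each of the 8 fits without 1 library. Bhmt2, with -0.26 ± 0.09, was not called (limma adjusted p = 0.033). After scaling to equal medians Bhmt2 was called lower, with -0.50 (limma adjusted p = 0.0066). In L-NCORdeltaID 0 of the 7 genes were called in limma. There, 3 were lower and 0 higher at an unadjusted p under 0.05, beside 1072 and 1759 of all 13790 genes. The largest difference was -0.38 ± 0.07 for Pipox (limma adjusted p = 0.022).

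Of the genes for serine synthesis, Psat1 and Psph were called higher with T3. They encode the phosphoserine aminotransferase and phosphatase that follow PHGDH. Psph was at 2.50, 3.83, 3.36 and 3.16 RPKM in hypothyroid WT and 6.23, 6.39, 11.3 and 12.6 RPKM in hyperthyroid WT, a log2 fold change of 1.42 ± 0.24 (limma adjusted p = 0.0015). Psat1 was at 0.572, 0.646, 2.45 and 0.559 RPKM in hypothyroid WT and 1.89, 6.92, 17.5 and 10.6 RPKM in hyperthyroid WT, a log2 fold change of 2.90 ± 0.67 (limma adjusted p = 0.0064). The Psat1 ranges overlapped through hypothyroid WT replicate 3 and hyperthyroid replicate 1, and its call was kept in 2 of 8 fits without 1 library, those without either of these libraries. After scaling to equal medians Psat1 had a log2 fold change of 2.68 and missed the threshold narrowly (limma adjusted p = 0.0105). Mthfd2, a mitochondrial folate dehydrogenase gene, showed the same order of hyperthyroid livers, at 0.569 to 2.39 RPKM and 1.23 to 8.95 RPKM, and was not called (2.15 ± 0.62, limma adjusted p = 0.018). Csad, the cysteine sulfinate decarboxylase gene of taurine synthesis, was also highest in hypothyroid WT replicate 3 and in hyperthyroid replicates 3 and 4, was called higher, from 24.2 ± 15.2 to 79.8 ± 32.2 RPKM (limma adjusted p = 0.0089), was kept in the same 2 of 8 fits, and after scaling had a log2 fold change of 1.57 (limma adjusted p = 0.018). Hyperthyroid replicate 3, which has the highest Psat1, Mthfd2 and Csad, is the library with an acinar marker sum of 934.9 RPKM, whereas replicate 4, with 73.5 RPKM of these markers, has the highest Psph. In L-NCORdeltaID, Psat1 was at 0.115 to 0.354 RPKM, below all hypothyroid WT livers but not called (-1.66 ± 0.44, limma adjusted p = 0.073).

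**Figure D3:**
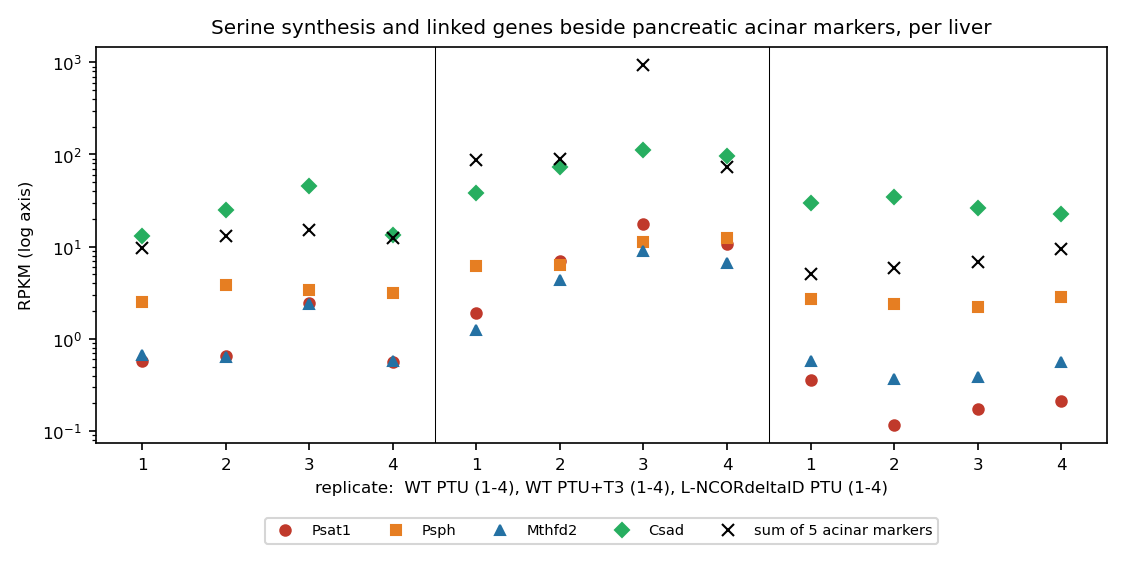
Level (RPKM, log y axis) of Psat1, Psph, Mthfd2 and Csad and the summed level of 5 pancreatic acinar markers in each of the 12 livers (x axis, replicates 1 to 4 of each group). Hyperthyroid replicate 3 has the highest acinar sum, 934.9 RPKM, and hypothyroid WT replicate 3 has the highest Psat1 of its group, 2.45 RPKM.

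Of 9 serine, threonine and glyoxylate genes, Sds included, 3 were called lower and 1 higher with T3, beside 7.71% and 24.5% of all genes. Agxt, the peroxisomal enzyme gene that turns glyoxylate into glycine, fell from 117.3 ± 5.59 to 66.8 ± 10.2 RPKM (limma adjusted p = 0.00039). Agxt2, a mitochondrial aminotransferase gene, and Gcat, which acts in threonine breakdown to glycine, had log2 fold changes of -0.90 ± 0.12 and -0.77 ± 0.12 (limma adjusted p = 0.00044 and 0.00099). Grhpr, which encodes a reductase of glyoxylate and hydroxypyruvate, rose from 101.3 ± 18.1 to 208.7 ± 2.57 RPKM (limma adjusted p = 0.00014). The hypothyroid and hyperthyroid WT ranges did not overlap for 5 of the 9 genes, these 4 included, beside 46.6% of all genes tested. In L-NCORdeltaID 0 of the 9 genes were called in limma. There, 2 were higher and 1 lower at an unadjusted p under 0.05, beside 1759 and 1072 of all 13790 genes.

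Among the other genes of glycine use, Dld, the dehydrogenase that completes the cleavage system and serves other complexes, was higher with T3 by 0.36 ± 0.06 on the log2 scale (limma adjusted p = 0.0013). After scaling to equal medians it was not called. Glyat, which conjugates glycine to acyl groups, fell from 176.7 ± 12.3 to 107.8 ± 19.7 RPKM (limma adjusted p = 0.0017), and was at 117.9 ± 17.9 RPKM in L-NCORdeltaID without being called (limma adjusted p = 0.025). The lipoylation genes Lias, Lipt1 and Lipt2 were not called in either comparison. After scaling to equal medians Lipt1 was called lower with T3, with a log2 fold change of -0.53 (limma adjusted p = 0.0081).

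In the methionine cycle list of 12 genes, Gnmt and Mat1a included, 1 was called higher and 2 lower with T3, beside 24.5% and 7.71% of all genes. The 2 genes called beside Gnmt were Gamt and Mat2a. Gamt, the guanidinoacetate methyltransferase gene of creatine synthesis, had a log2 fold change of -0.88 ± 0.21 (limma adjusted p = 0.0075), and its call was kept only without hyperthyroid replicate 1. Mat2a, the synthetase gene of extrahepatic tissues, had 0.29 ± 0.06 (limma adjusted p = 0.0049), was kept only without hyperthyroid replicate 2 or 4, and was not called after scaling. Ahcy, the S-adenosylhomocysteine hydrolase gene, was at 32.7 ± 9.98 RPKM in hypothyroid WT, 29.9 ± 10.3 RPKM in hyperthyroid WT and 75.5 ± 30.4 RPKM in L-NCORdeltaID. The L-NCORdeltaID livers did not overlap hypothyroid WT, and the difference was not called (1.17 ± 0.31, limma adjusted p = 0.071).

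Transsulfuration, which takes homocysteine to cysteine, held the 1 other pathway gene called in L-NCORdeltaID. Cth, the cystathionine gamma-lyase gene, was at 97.3, 80.7, 82.1 and 94.4 RPKM in hypothyroid WT, 60.4, 77.8, 54.1 and 59.9 RPKM in hyperthyroid WT, and 257, 194.3, 155.8 and 202.5 RPKM in L-NCORdeltaID. The 3 groups did not overlap, with hyperthyroid WT lowest and L-NCORdeltaID highest. The log2 fold change was 1.17 ± 0.14 in L-NCORdeltaID (limma adjusted p = 0.0032) and -0.50 ± 0.12 with T3 (limma adjusted p = 0.0072). Without hypothyroid WT replicate 2, 3 or 4 the first of these was not called, with adjusted p up to 0.015, and the second was kept only without hyperthyroid replicate 2. Cdo1, the cysteine dioxygenase gene, was at 450.4, 400.9, 479.9 and 451.6 RPKM in hypothyroid WT and 831.8, 938.4, 755.7 and 822.2 RPKM with T3, a log2 fold change of 0.91 ± 0.10 (limma adjusted p = 0.00015). In L-NCORdeltaID it was at 500.6 to 764.8 RPKM, above hypothyroid WT but not called (0.52 ± 0.14, limma adjusted p = 0.066). Sqor and Tst, of mitochondrial sulfide and thiosulfate oxidation, were lower with T3, with log2 fold changes of -0.86 ± 0.10 and -0.70 ± 0.09 (limma adjusted p = 0.00018 and 0.00027). Suox, the sulfite oxidase gene, had -0.27 ± 0.07 (limma adjusted p = 0.0088), a call lost whichever library was left out. Cbs, the first enzyme gene of this route, was not called in either comparison.

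Of the 19 other folate genes, 3 were called higher and 3 lower with T3, beside 24.5% and 7.71% of all genes. Fpgs, whose product adds the glutamate tail that keeps folate in cells, was at 30.6, 33.6, 33.7 and 29.0 RPKM in hypothyroid WT and 88.8, 79.3, 72 and 84.8 RPKM in hyperthyroid WT (1.35 ± 0.08, limma adjusted p = 9.4e-06). Its L-NCORdeltaID livers, at 36.6 to 42.8 RPKM, were above hypothyroid WT without being called (limma adjusted p = 0.064). Folr2, a folate receptor gene known from macrophages, rose from 2.75 ± 0.319 to 10.4 ± 2.24 RPKM (limma adjusted p = 4.9e-05), beside the 6 of 6 Kupffer markers that were called higher. Aldh1l1, the cytosolic formyltetrahydrofolate dehydrogenase gene, fell from 631 ± 56.9 to 289.4 ± 57 RPKM (limma adjusted p = 0.00036), while Slc19a1, a folate carrier gene, had a log2 fold change of -0.55 ± 0.13 (limma adjusted p = 0.0081). The call of Slc19a1 was kept only without hypothyroid WT replicate 1 or hyperthyroid replicate 4.

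**Figure D4:**
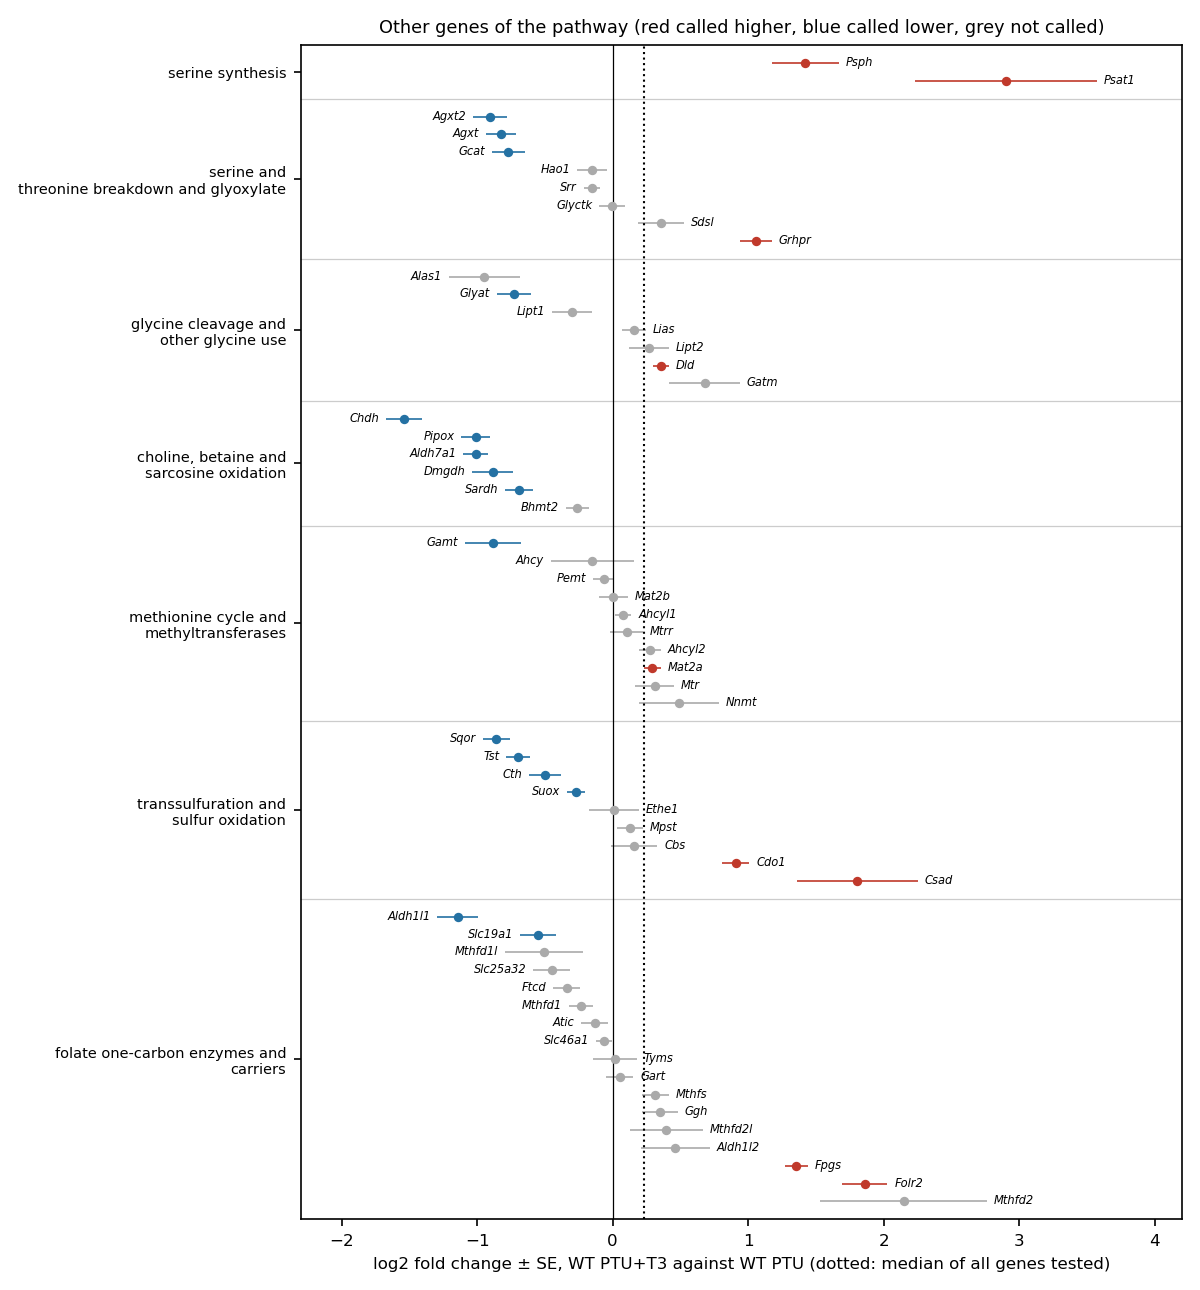
Log2 fold change ± SE (x axis) with T3 of 59 of the 61 other pathway genes tested, by list, with red for called higher, blue for called lower, grey for not called, and a dotted line at the median of all genes, 0.233. The choline, betaine and sarcosine genes all lie below 0, and Psat1 and Psph are at 2.90 and 1.42.

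By the rule of likeness, the genes with the highest Pearson r to Gldc on the log2 scale over the 12 libraries were Abcg8 (0.9625), Cdo1 (0.9543) and Gsdmd (0.9528), among 10663 genes with a mean of at least 1 RPKM. Those nearest to Gnmt were Adh1 (0.9867), Zfp385b (0.9818) and Dsg1c (0.9816). These libraries fall into 3 groups, so the points share their group means. Abcg8 encodes a subunit of the sterol transporter of the canalicular membrane, and Adh1 an alcohol dehydrogenase.

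The deposited list of 37200 regions with acetylated H3 shows where these genes lie in active chromatin, without telling the groups apart. The start site was inside a region for 9 of the 10 genes, against 86.4% of 12314 tested genes with a known position. Phgdh was the exception, with the nearest region 26837 bp away. The region at the start site was 38668 bp long at Shmt1, 35753 bp at Mat1a, 21048 bp at Gldc, 19413 bp at Sds, 16764 bp at Gnmt, 14598 bp at Bhmt and 11721 bp at Shmt2, and 3452 bp at Gcsh and 2963 bp at Amt. The median was 16764 bp over the 9 genes and 3973 bp over all start-site regions, so the Gcsh and Amt regions were shorter than that and the other 7 longer. Within 100 kb of the start site there were a median of 10 regions for the 10 genes and 7 for all genes.

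**Figure D5:**
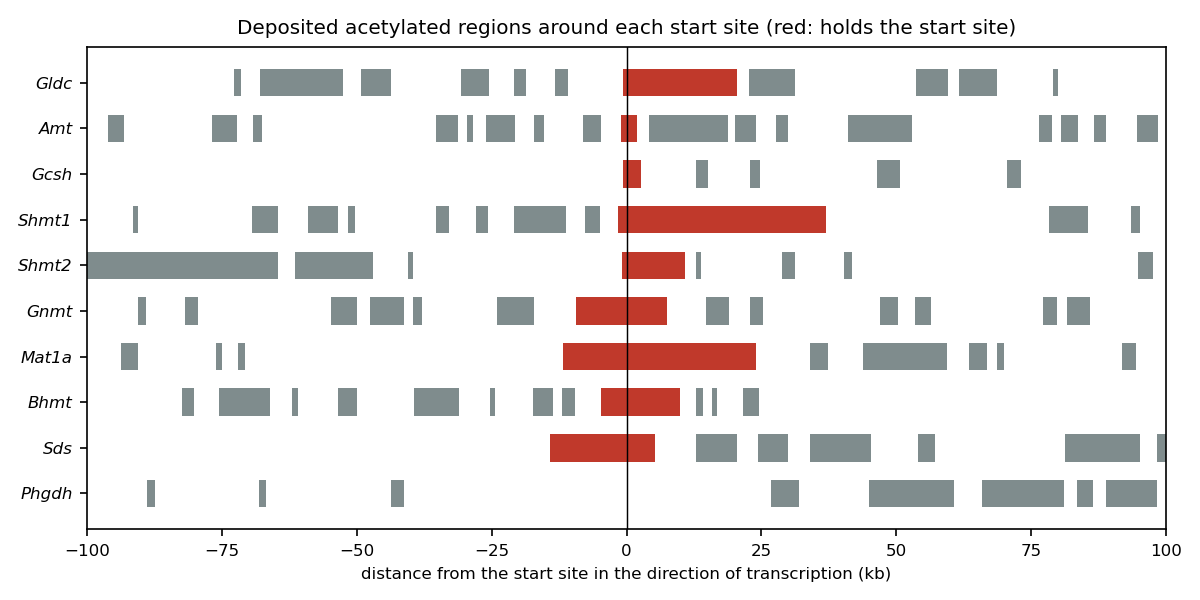
Acetylated regions (bars) within 100 kb of the start site of each of the 10 genes, by distance in the direction of transcription (kb, x axis), with the region that holds the start site in red. Shmt1 and Mat1a have regions of 38668 and 35753 bp at the start site, and Phgdh has none there.

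Matches to the DR4 element were then sought in these start-site regions on both strands, as 2 copies of AGGTCA with 4 bases between them, scored by how many of the 12 half-site bases agreed. The 4 regions with 11 or 12 matching bases are shown, read on the strand of the match, with the half-site positions in capitals and the bases between them in lower case.
Bhmt: AGGTCAcagaAGGTCA
Sds: AGGTCAacatAGGTCA
Gldc: CGGTCAgctcAGGTCA
Shmt2: AGGTCAgaggAGGGCA
The Bhmt match, at chr13:94412116-94412131 on the minus strand, has 12 of 12 bases and lies upstream, at -4207 bp from the start site, and 0.8% of 500 regions of like length (13097 to 16070 bp) hold one as good. The Sds match, at chr5:120928590-120928605 on the minus strand, also has 12 of 12 and lies in intron 1, 2057 bp from the start site, where 1.8% of 500 like regions do as well. In Gldc the best match is in intron 2, 8399 bp from the start site, at chr19:30241502-30241517 on the minus strand, with 11 of 12 bases (22.4% of like regions). The Shmt2 match, at chr10:126958625-126958640 on the minus strand, has 11 of 12 bases in intron 1, 859 bp from the start site (14.4%). The best match had 10 of 12 bases at Shmt1 and Mat1a, which 96% and 95.6% of like regions reach, and 9 of 12 at Amt, Gcsh and Gnmt. A match is a string of letters only, and receptor binding was not analysed here.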

How the data were processed

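Polyadenylated RNA of 12 mouse livers was sequenced by the authors as 4 independent biological replicates per group. Per the labels and the study's methods, the authors aligned reads to mm9 with STAR and used HOMER to compute the deposited RPKM of each RefSeq transcript in each library. The tool versions are not given in the sources used here, and DESeq2, which the submitters' processing notes name, was not run here on RPKM. The deposited list of regions, with start and end coordinates in mm9, was made by the authors by merging H3K9Ac and H3K27Ac regions over conditions, without a value per sample. The remaining ChIP-seq samples were not analysed here. Of 31370 transcripts, 1 had no gene name (at most 0.00079% of RPKM) and was left out, and 0 columns were unused. The first listed transcript stood for each of 23813 genes (4272 had more than 1, and 5072 were at 0 in all libraries).

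Groups were compared in pairs in limma 3.58.1 under R 4.3.3. Values entered as log2(RPKM + 0.1), the variance followed a trend with level, and the genes tested were those at 0.1 RPKM or more in at least 4 of the 8 libraries. The p-values were adjusted by Benjamini-Hochberg over all genes tested (call at 0.01). A fold change on this scale understates that of low genes. Two-sided p-values weigh the difference between group means against the variance between livers, which limma moderates across genes. Depth was read from whole-read steps of values under 0.5 RPKM, and counting error is among the limits on low genes. GENCODE start sites, the most upstream among protein-coding transcripts of a gene, and mm9 sequence gave regions and motifs. Like regions are the 500 nearest in length. The listed symbols Sqrdl and Emr1 are in the table as Sqor and Adgre1, and Cd68 is not in it.

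The members and gene lists were chosen with earlier results of these data known. Named genes are the 10 members, each other listed gene that was called in either comparison, listed genes needed as examples (2 listed genes, included in all counts, are not reported here individually), the 3 genes most like each of the 2 members with the largest T3 difference, and Thrsp, Dio1 and Ncor1. Alternatives were other pseudocounts, filters, scaling, transcripts and thresholds, all 12 libraries in 1 fit, no trend, a replicate block, and each library left out.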

Additional observations from a re-analysis of the deposited data

Results flagged for a closer look

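Within each group of 4 livers, the highest or lowest value of each of the 10 genes was compared with the rest, and 4 of 30 such groups held a liver set apart by a gap above Dixon's 95% value, where chance gives about 1 in 20. Gldc was lowest in hyperthyroid replicate 3, at 73.2 RPKM, with a gap of 0.8368 of the range. This is also the library with the highest pancreatic acinar marker sum. Amt was highest in hypothyroid WT replicate 3, at 23.1 RPKM (0.8821 of the range), and this liver also had the highest Dio1 of its group. Gnmt was highest in L-NCORdeltaID replicate 2, at 3053 RPKM (0.8972 of the range), which also had the highest Kupffer marker sum of its group. Phgdh was listed at 0.026 RPKM in L-NCORdeltaID replicate 1 and at 0 in the other 3, a difference of about 2 reads. What sets these livers apart was not tested.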

How the results depend on the processing

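With T3, the calls of Gldc, Shmt1 and Gnmt kept their direction and side of the threshold under every alternative run, and that of Amt under all but 2, all 12 libraries in 1 fit (0.50 ± 0.14) and scaling to equal medians (0.26 ± 0.08). Members called lower were 2 in place of 1 after scaling, through Gcsh (-0.36), and 2 at an adjusted p under 0.05, through Sds. After scaling, other pathway genes called higher were 6 in place of 10, all genes were 1701 higher and 1953 lower, and Mat1a and Shmt2 changed sign to -0.2382 and -0.0224. At an adjusted p under 0.05, 5244 genes were higher and 1636 lower. Without 1 library, Mat1a lay between -0.0918 and 0.0786, below 0 in 4 of 8 fits.

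In L-NCORdeltaID, Shmt1 was called under every alternative run. Members called higher were 1 to 2 without 1 library and 1 with no variance trend, where Gldc was lost. Other pathway genes called higher were 0 to 1 without 1 library, 2 with all 12 libraries in 1 fit and 3 at an adjusted p under 0.05, where 3 were lower. All genes called higher were 36 to 110 without 1 library, 63 with no trend and 344 at 0.05. Those called lower were 28 to 77, 118 with all 12 libraries and 257 at 0.05. Amt changed sign after scaling (-0.0152) and lay between -0.1142 and 0.1479 without 1 library, below 0 without hypothyroid WT replicate 2 or L-NCORdeltaID replicate 4. The causes were not tested.

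Replicate numbers did not pair the samples. Deviations of same-numbered libraries correlated at 0.0623, -0.0589, 0.0744 and -0.049 with T3 and at 0.166, -0.119, 0.0784 and -0.123 in L-NCORdeltaID, and not every library correlated best with its own number. With the replicate number as a block, calls in L-NCORdeltaID went to 20 higher and 25 lower and members called higher to 1, Gldc being lost, whereas the T3 counts stayed within 1.5 times. The median number of regions near the start site was 5.5 within 50 kb and 17 within 200 kb. The values of Phgdh rest on 0 to 22 reads per library.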
